A study of Mus musculus with 14 samples.

Results

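The response of the colon to dextran sodium sulfate (DSS) was measured in GR iKO mice, in which both floxed alleles of Nr3c1, the gene of the glucocorticoid receptor (GR), are recombined by a cre transgene under the Villin promoter. Villin-cre acts in the epithelium of the intestine, so immune, muscle and connective tissue cells of these colons still carry the receptor. All mice were C57BL/6 females of 4 to 6 months on chow diet, and 1 mouse was hybridised per single-colour Agilent mouse array. The 7 arrays described here, of 14 in the series, were 3 from GR iKO mice that drank 2.5% DSS over 7 days and 4 from GR iKO mice kept on regular water. The other 7 arrays came from Flox mice, which carry the same floxed alleles without cre, 3 on DSS and 4 on water, and are used only for comparison. The arrays carried 41174 probes, of which 28257 were tested because they stood well above background on 3 or more of the 7 GR iKO arrays. They represented 15082 genes with a symbol, 1 probe per gene. No Flox array entered this filter. A gene dim on all 4 water arrays could pass it only through the 3 DSS arrays, which favours rises among such genes. Levels are log2 signal minus the 75th percentile of the same array, listed for replicates 1, 2, 3 and 4 on water and for replicates 1, 3 and 4 on DSS. A log2 change of 1 is a 2-fold change, and a probe was called at a Benjamini-Hochberg adjusted p under 0.05 in limma.

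DSS is toxic to the surface epithelium of the colon and lets luminal bacteria reach the mucosa, which draws in neutrophils and monocytes and causes ulceration. Glucocorticoids bind GR, which then enters the nucleus, switches on genes such as Tsc22d3 and Fkbp5 and restrains transcription driven by NF-κB and AP-1. The intestinal epithelium can also make glucocorticoids itself, with Nr5a2 as a regulator and Hsd11b1 as the enzyme that regenerates active hormone.

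The targeted gene was lower in the GR iKO colon. The Nr3c1 probe with the highest signal read 0.36, 0.57, 0.44 and 0.19 on water and 0.48, 0.45 and 0.37 on DSS in GR iKO, which was 57.3% of the Flox signal on water (4 against 4 arrays, exact permutation test, two-sided, p = 0.0286) and 56.1% on DSS (3 against 3 arrays, exact permutation test, p = 0.1, the smallest that 3 against 3 arrays allow). No GR iKO array overlapped the Flox arrays of the same treatment with this probe. Of the other 3 probes, 1 overlapped on water, at 55.7% (exact permutation test, 4 against 4 arrays, p = 0.143), and 1 on DSS, at 75.7% (exact permutation test, 3 against 3 arrays, p = 0.5). Within GR iKO the level did not separate by treatment, with a difference of 0.04 (exact permutation test, 3 against 4 arrays, p = 0.686). The tissue was whole colon, and the signal that was left cannot be assigned to cell types. Here and below, fewer cells of a type and less RNA per cell cannot be told apart.

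The arrays carried the colon markers Cdx2, Vil1, Epcam, Car1, Slc26a3 and Aqp8 above background on all 7 GR iKO arrays. The 75th percentile of signal was 740 to 963 on the water arrays and 493 to 713 on the DSS arrays, and 64.7% to 68.3% of probes were well above background. Across probes the water arrays correlated with each other at 0.985 to 0.991, the DSS arrays at 0.957 to 0.974, and DSS with water arrays at 0.908 to 0.932. The median SD of a probe was 0.17 on water and 0.33 on DSS, and 77.7% of probes had the larger SD on DSS. Pancreatic enzyme genes moved between mice of the same group. The amylase gene Amy2a5 read 6.18, -3.85, 5.07 and 2.97 on water and -3.33, 8.22 and -3.22 on DSS, so DSS replicate 3 stood above all other arrays and water replicate 2 and DSS replicates 1 and 4 stood below. Each DSS array shared its slide with the GR iKO water array of the same number, and the slide of water replicate 2 held no GR iKO DSS array.

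DSS moved a large part of the measured transcriptome in GR iKO colon. Of the 28257 probes, 11010 were called (39%), 5601 higher on DSS and 5409 lower (19.8% and 19.1%). Of the 15082 genes, 3319 rose (22%) and 2841 fell (18.8%), and 2027 genes rose at least 2-fold (13.4%) against 1079 that fell at least 2-fold (7.15%). For 7508 genes (49.8%) the 3 DSS values did not overlap the 4 water values. The median change over all genes was -0.01. With the slide pairs as a block 6981 probes were called, and of the genes named below the calls of Cavin2, Ccl28, Cx3cr1, Cyc1, Hoxb7, Il25, Insl5, Jak2, Klrd1, Lyz2, Mt1, Muc1, Nat14, Nexn, Ocln, Postn, Ppp1r14a, Prtn3, Rab11fip1, Reg3a, Saa3, Sgk1, Sox9, Speg and Trpm5 were then lost (adjusted p = 0.0507 to 0.138 in limma). Directions are relative to the average probe: scaled to the spike-in transcripts instead, the median of all probes moved to -0.99, and 1137 probes were then called higher and 15494 lower.

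**Figure D1:**
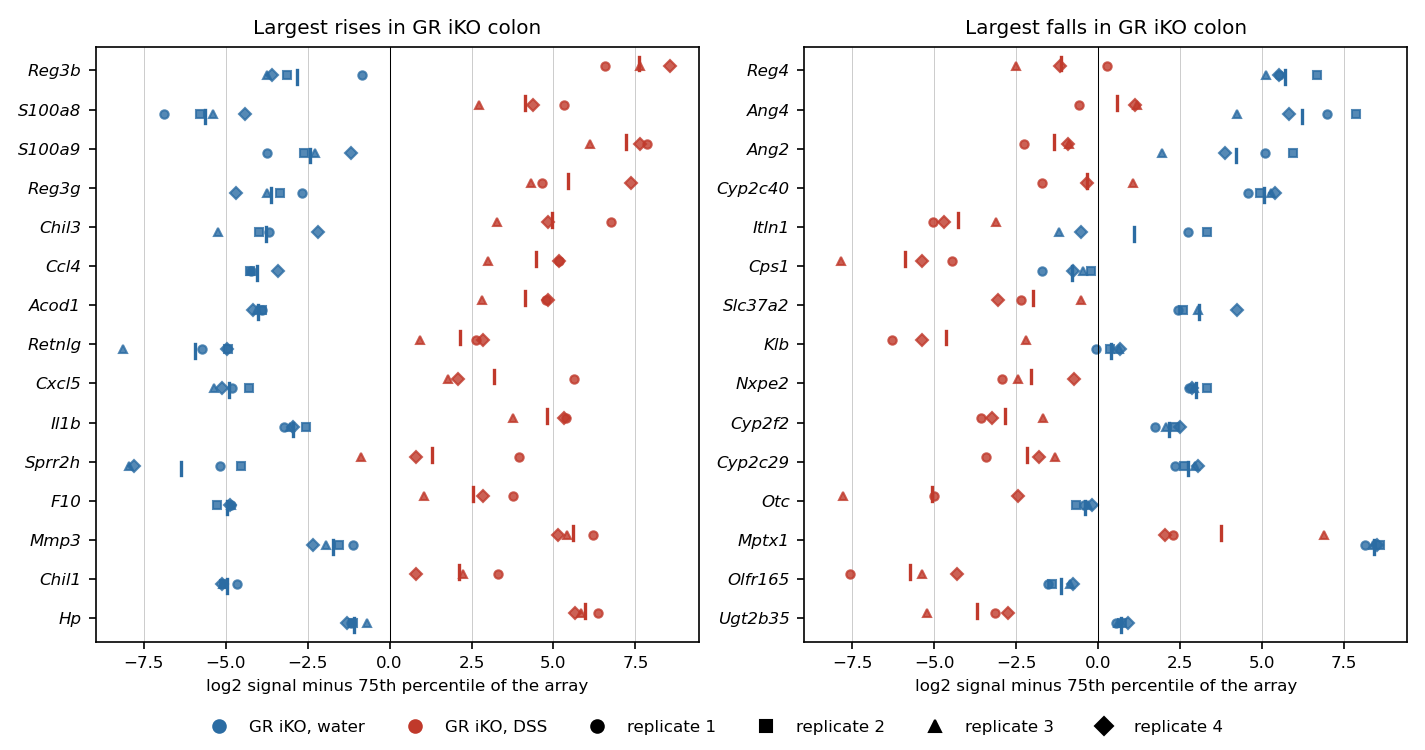
The 15 largest rises (left) and 15 largest falls (right) among genes measured in both groups, with the log2 signal minus the 75th percentile of the array on the x axis. Blue points are the 4 water arrays, red points the 3 DSS arrays, point shapes give the replicate and bars the group means; for each gene shown no red point lies within the range of the blue points.

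The largest rises joined a secreted epithelial lectin family to products of neutrophils and activated macrophages. Reg3b, a bactericidal C-type lectin of the gut epithelium, read -0.85, -3.14, -3.74 and -3.58 on water and 6.58, 7.64 and 8.57 on DSS, a rise of 10.42 ± 0.76 (SE) (adjusted p = 0.000181). All 3 DSS arrays lay above all water arrays, of which replicate 1 was the highest. Its neighbour in function Reg3g rose by 9.07 ± 0.78 (SE). S100a8, a subunit of the neutrophil protein calprotectin, was above background on 2 of the 4 water arrays and read -6.88, -5.79, -5.39 and -4.42 on water and 5.32, 2.73 and 4.36 on DSS, a rise of 9.76 ± 0.72 (SE) (adjusted p = 0.000182). The other subunit S100a9 rose by 9.65 ± 0.64 (SE). DSS replicate 3 was the lowest DSS array for both subunits and still stood far above the water arrays. The chitinase-like proteins Chil3 and Chil1 rose by 8.73 and 7.09, Acod1, which makes the antimicrobial metabolite itaconate in macrophages, by 8.14, and the resistin-like Retnlg by 8.07, from above background on 3 of the 4 water arrays. The largest rises also held Sprr2h, a small proline-rich protein of cornified epithelia that was above background on 2 water arrays, at 7.67 ± 1.29 (SE) with DSS levels of 3.96, -0.87 and 0.80, coagulation factor F10 at 7.50, the matrix protease Mmp3 at 7.33 and haptoglobin, Hp, at 7.02. The SE of Sprr2h was the widest of these rises, and its DSS arrays spread over more than 4 log2 units. Reg3, Chil and Sprr2 genes have close paralogs, and a probe may read more than 1 of them.

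Other genes were well above background on all 3 DSS arrays and on none of the 4 water arrays, so that only a lower bound of their change can be given. Clec4e, the receptor for fungal and mycobacterial glycolipids on myeloid cells, was at least 378-fold higher on DSS (measured means -6.55 and 2.71). Il6, the interleukin that drives the acute phase response, was at least 134-fold higher, with -7.89, -7.52, -8.10 and -8.00 on water and 1.99, 0.62 and 1.04 on DSS. The iron-binding neutrophil protein Ltf was at least 184-fold higher (means -6.59 and 1.67), the pentraxin Ptx3 at least 113-fold (means -6.43 and 0.97) and the neutrophil collagenase Mmp8 at least 92.5-fold (means -8.06 and 0.68). Each of these genes was called. The next bounds belonged to Gml, Wfdc21, Trim10 and the chitinase-like Chil4, at least 109-fold, 88.3-fold, 83-fold and 78.6-fold higher, with water means of -7.23, -7.59, -6.93 and -7.34 and DSS means of 0.91, 0.61, 0.55 and 0.48. In all, 143 called genes had only such a bound in the upward direction and 95 in the downward direction.

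Nearly all tested neutrophil genes rose, many of them admitted to the test through the DSS arrays. Of the 22 tested genes of neutrophil granules and receptors, 21 rose, 1 fell and 0 were not called, against 22% and 18.8% of all genes, with a median change of 5.40. With the filter on all 7 arrays, 8 of them were tested, of which 7 rose and 1 fell. The mean level of the list was 5.95, 4.22 and 5.31 above the water mean on the 3 DSS arrays, while the 4 water arrays spanned -0.28 to 0.30. The granule genes included Ltf, Ngp (5.31, with water replicate 1 above DSS replicate 3), the cathelicidin Camp (3.58), the gelatinase Mmp9 (2.45) and myeloperoxidase Mpo (1.48). The receptors included the chemokine receptor Cxcr2, at least 18.4-fold higher (means -7.63 and -1.65), the formyl peptide receptors Fpr1 and Fpr2 (6.29 and 6.65), Trem1 (5.48), Csf3r (4.41) and the decoy receptor Il1r2 (4.90). The genes of primary granules, which immature cells of the bone marrow transcribe, were among the smallest rises, with Mpo as above and Prtn3, proteinase 3, at 0.89. Fpr1 was above background on 2 water arrays, Fpr2, Trem1, Ngp and Prtn3 on 1, and Csf3r, Camp and Mpo on 3, so these changes are of partly unmeasured water levels. Cd177 was the exception and fell by 1.78 ± 0.55 (SE). With normexp background correction, which starts from median spot signals and adds an offset, the median of this list relative to all genes was 2.65 in place of 5.41.

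The ligands that recruit neutrophils rose with them. Of 8 tested attractants, 7 rose, 0 fell and 1 was not called, with a median change of 6.90, against 22% of all genes that rose. With the filter on all 7 arrays, 4 were tested, of which 3 rose and 0 fell. Cxcl1, which binds Cxcr2, read -4.73, -3.06, -5.83 and -5.84 on water and 2.82, 1.27 and 1.00 on DSS and rose by 6.56 ± 0.75 (SE) (adjusted p = 0.000724). Cxcl2 read -8.17, -6.74, -8.20 and -7.46 and 0.75, -1.16 and 0.41, was above background on no water array and was at least 57.8-fold higher on DSS. In both genes every DSS array was far above every water array, and DSS replicate 1 was the highest. Cxcl5 rose by 8.06 ± 0.88 (SE), Cxcl3 was at least 49.4-fold higher (means -8.12 and -0.23), and the granulocyte growth factors Csf3 and Csf2 were at least 38.5-fold (means -7.82 and -0.58) and 4.9-fold higher (means -7.52 and -3.56). Csf1, the macrophage growth factor, rose by 1.12, and the platelet chemokine Pf4 was not called at -0.27.

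The promoters of Cxcl1, Cxcl2 and the cytokine Il6 are shown because NF-κB is the factor through which GR is best known to restrain such genes. They are examples that hold a match. The sequences are from RefSeq (GRCm38.p6), 250 bases before to 50 after the start of the gene and read along the gene's strand, and capitals mark matches to the NF-κB motif (GGG, any 2 bases, TT, any 1 base, CC) on either strand, for Cxcl1 (chr5:90890995-90891294, plus strand), Cxcl2 (chr5:90903649-90903948, plus strand) and Il6 (chr5:30012864-30013163, plus strand).
Cxcl1: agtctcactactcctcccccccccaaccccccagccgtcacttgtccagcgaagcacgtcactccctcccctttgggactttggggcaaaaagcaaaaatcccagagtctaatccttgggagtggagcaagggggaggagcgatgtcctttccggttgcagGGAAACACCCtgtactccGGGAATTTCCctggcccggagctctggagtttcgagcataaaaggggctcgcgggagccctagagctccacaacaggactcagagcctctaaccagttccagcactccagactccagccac
Cxcl2: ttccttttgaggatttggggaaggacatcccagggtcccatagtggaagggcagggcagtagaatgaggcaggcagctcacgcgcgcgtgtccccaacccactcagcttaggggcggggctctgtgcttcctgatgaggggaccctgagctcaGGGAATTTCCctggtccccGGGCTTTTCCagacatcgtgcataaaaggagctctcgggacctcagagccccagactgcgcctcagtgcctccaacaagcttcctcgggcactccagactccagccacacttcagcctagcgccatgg
Il6: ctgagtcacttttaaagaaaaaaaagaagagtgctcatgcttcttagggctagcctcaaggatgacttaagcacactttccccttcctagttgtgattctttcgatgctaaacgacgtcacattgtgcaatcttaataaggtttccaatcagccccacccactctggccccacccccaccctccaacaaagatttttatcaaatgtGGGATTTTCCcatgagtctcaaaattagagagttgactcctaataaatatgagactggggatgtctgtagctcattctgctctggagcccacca
Cxcl1 held matches 89 and 71 bases before its start, Cxcl2 at 97 and 78 and Il6 at 44. Of the 6 tested attractants with a promoter sequence, 4 held this motif (Csf1, Cxcl1, Cxcl2 and Cxcl3), and of 13 NF-κB subunits and inhibitors 7 did, against 6.373% of the 11989 tested genes with a promoter sequence and 5.476% of all 27025 promoter genes. The motif was less common in related lists, in 2 of 11 promoters of IL-1 and IL-6 family cytokines and 3 of 10 of CC chemokines. Among genes that rose at least 2-fold 8.246% held it, and among those that fell at least 2-fold 6.73%. A match is a stretch of letters and no evidence of binding, and the cells that transcribed these genes were not identified.

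Ligands of monocytes and other leukocytes followed. Of 16 tested CC chemokines, 10 rose, 1 fell and 5 were not called, with a median of 2.52, against 22% of all genes that rose and 18.8% that fell. Ccl4 read -4.24, -4.26, -4.24 and -3.41 on water and 5.18, 3.00 and 5.18 on DSS, a rise of 8.49 ± 0.54 (SE). Ccl3 (8.05, above background on 1 water array), Ccl2 (6.36) and Ccl7 (5.71), which recruit monocytes through receptors such as Ccr1 or Ccr2, rose as well, as did the T cell attractants Ccl5 (4.30) and Ccl19 (2.76) and the eosinophil attractant Ccl11 (2.29). The chemokines made mainly by gut epithelium did not follow. Ccl28 fell by 0.84 ± 0.26 (SE) with overlapping groups, and Ccl20 (-0.28 ± 0.61 (SE)) and Ccl25 (-0.52 ± 0.24 (SE)) were not called.

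Interleukins of the IL-1 and IL-6 families rose widely. Of 14 tested ligands, 10 rose, 1 fell and 3 were not called, against 22% and 18.8% of all genes, with a median of 4.15. With the filter on all 7 arrays, 10 were tested, of which 6 rose and 1 fell. Il1b read -3.23, -2.54, -3.05 and -2.96 on water and 5.37, 3.75 and 5.32 on DSS and rose by 7.76 ± 0.40 (SE) (adjusted p = 8.10e-05). Its arrays formed narrow groups, with DSS replicate 3 the lowest of the DSS arrays. Il1a was at least 23.4-fold higher (means -7.76 and -1.31), Tnf rose by 5.06, the IL-6 family members Il11 and Osm by 5.64 and 3.87 (Osm above background on 3 water arrays), the alarmin Il33 by 4.43, and Il1rn, the natural inhibitor of the IL-1 receptor, by 2.17. Il18, an epithelial member of the family, was not called at -0.69 ± 0.25 (SE), and Ctf1 fell by 1.55 ± 0.14 (SE).

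Cytokines of type 3 immunity came above background on the DSS arrays. Il22, which acts on epithelium to induce Reg3 lectins and repair, read -8.17, -7.98, -8.22 and -8.33 on water and 0.33, 0.48 and -1.33 on DSS and was at least 51.2-fold higher. Il17a was at least 5.87-fold higher (means -7.87 and -3.30), and Il19, a relative of IL-10, at least 36.9-fold (means -7.82 and -0.65). None of these genes was above background on a water array, and all were on the 3 DSS arrays. Il10 itself was at least 2.39-fold higher (means -6.50 and -4.59). Il22ra2, the secreted decoy that blocks IL-22, fell by 2.64 ± 0.68 (SE) and was above background on 2 of the 3 DSS arrays, while the signalling receptors Il22ra1 (0.28) and Il10rb (0.41) were not called. Of the 15 tested genes of the IL-17, IL-22, IL-12 and IL-10 group, 9 rose, 1 fell and 5 were not called, against 22% of all genes that rose and 18.8% that fell. Il22, Il17a and Il19 entered the test only through the DSS arrays. With the filter on all 7 arrays, 7 genes of the group were tested, of which 3 rose and 0 fell.

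Interferon-gamma and its targets rose together. All 21 tested genes of this list were called higher, with a median of 4.25, against 22% of all genes. Ifng read -6.54, -6.78, -5.99 and -5.27 on water, where 1 array was above background, and 1.51, 0.37 and 2.87 on DSS, a rise of 7.73 ± 0.60 (SE). Cxcl10, which attracts T cells through Cxcr3, read -1.53, -1.16, -2.10 and -1.93 and 5.69, 3.74 and 4.69, a rise of 6.39 ± 0.44 (SE) (adjusted p = 0.00016). The guanylate-binding protein Gbp2 read 0.91, 1.01, 1.36 and 1.32 and 5.86, 4.54 and 5.81, a rise of 4.25 ± 0.33 (SE). In each of these genes DSS replicate 3 was the lowest DSS array and no water array reached it. Cxcl9 rose by 6.62, Ido1, which breaks down tryptophan, by 5.81, the GTPases Gbp5 and Iigp1 by 5.85 and 5.83, and Nos2, inducible nitric oxide synthase, was at least 20-fold higher (means -7.40 and -1.53). The transcription factors moved less, with Irf1 at 1.31, Ciita at 1.30 and Irf8 at 0.89. Of 20 tested antiviral genes shared with type I and III interferons, 18 rose, 0 fell and 2 were not called, with a lower median of 2.20; Ifit2 rose by 3.79, Oas2 by 3.39 and Isg15 by 2.98. Ifit, Oas and Gbp genes have paralogs close enough for their probes to share signal.

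The promoters of Cxcl10 (chr5:92348840-92349139, minus strand) and Gbp2 (chr3:142620413-142620712, plus strand) are shown as examples of interferon-responsive starts, from RefSeq (GRCm38.p6) along the strand of the gene. Capitals mark matches on either strand to the interferon-stimulated response element (GAAA, any 2 bases, GAAA) and, in Cxcl10, to the NF-κB motif nearer the start.
Cxcl10: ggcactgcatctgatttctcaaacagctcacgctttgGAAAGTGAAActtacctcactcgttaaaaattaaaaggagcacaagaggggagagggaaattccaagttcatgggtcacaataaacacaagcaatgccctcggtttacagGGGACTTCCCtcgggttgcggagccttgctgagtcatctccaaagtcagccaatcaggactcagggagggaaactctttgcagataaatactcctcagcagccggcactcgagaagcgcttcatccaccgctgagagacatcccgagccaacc
Gbp2: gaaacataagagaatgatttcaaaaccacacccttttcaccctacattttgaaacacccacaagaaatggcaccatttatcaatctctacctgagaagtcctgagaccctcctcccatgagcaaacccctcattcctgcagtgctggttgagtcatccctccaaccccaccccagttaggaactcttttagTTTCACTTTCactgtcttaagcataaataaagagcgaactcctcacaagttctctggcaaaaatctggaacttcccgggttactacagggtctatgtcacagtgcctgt
The response element lay 213 bases before the start of Cxcl10 and 59 before that of Gbp2, and the NF-κB match 103 before the start of Cxcl10. The element was present in 10 of the 14 promoters found for the interferon-gamma list and in 10 of 16 for the antiviral list, against 3.745% of tested genes and 3.993% of all promoter genes. It was in 7.068% of genes that rose at least 2-fold and in 2.834% of those that fell at least 2-fold. The interferon-gamma-activated (GAS) motif TTCNNNGAA was in 8 of the 14 promoters of the interferon-gamma list, in 8.55% of tested genes and in 9.554% of all. Both lists were written from genes known to be induced by interferons, so their high shares are no result of these arrays. A match is no evidence of binding.

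Acute phase proteins, best known from the liver, rose in the colon itself. Of 20 tested genes, 15 rose, 0 fell and 5 were not called, against 22% and 18.8% of all genes, with a median of 3.39. With the filter on all 7 arrays, 13 were tested, of which 10 rose and 0 fell. Hp read -1.18, -1.13, -0.69 and -1.29 on water and 6.34, 5.85 and 5.67 on DSS, a rise of 7.02 ± 0.22 (SE) with tight replicates in both groups. Lcn2, the siderophore-binding protein used as a faecal marker of colitis, was above background on 3 water arrays and rose by 6.53 ± 0.73 (SE). The fibrinogen chains Fgb and Fgg were at least 38.7-fold (means -7.18 and -0.58) and 23.5-fold higher (means -7.74 and -1.30), complement C3 rose by 3.34, ceruloplasmin Cp by 3.51 and the serpin Serpina3n by 5.31. Serum amyloid genes did not move alike: Saa4 was at least 5.56-fold higher (means -6.92 and -3.38), Saa3 rose by 1.23, and Saa1 (0.08) and Saa2 (0.06), whose sequences are near-identical, were not called.

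Secreted antimicrobial proteins of the gut split by gene. Of 17 tested, 5 rose, 5 fell and 7 were not called, a called share of 58.8% against 40.8% of all genes. Reg3b, Reg3g and Reg3a rose, the last with widely spread DSS levels of -5.44, 5.27 and -1.87 against -7.51, -7.97, -8.22 and -8.31 on water. No fold is given for Reg3a, whose DSS mean rests on replicate 3 and whose call was lost with the slide block (adjusted p = 0.06 in limma) and in 5 of the 7 leave-one-out fits. Reg2 (-3.30, 8.51 and -1.87 on DSS), Reg1 (-4.37, 6.93 and -1.68) and Reg3d (-6.75, 3.08 and -7.13) were likewise highest on DSS replicate 3 and were not called. These Reg genes are also expressed in exocrine pancreas, and replicate 3 was the DSS array with high pancreatic enzyme signal. The list of pancreatic and small intestinal genes stood at -3.31, 2.72 and -2.88 on the 3 DSS arrays relative to the water mean, and on water it ranged from -3.22 to 1.69. Its part in the Reg1, Reg2, Reg3a and Reg3d values was not tested; Reg3b and Reg3g were high on all 3 DSS arrays. Lyz1 and Lyz2 rose by 1.00 and 0.96. Pigr, which carries IgA across the epithelium, fell by 1.15 ± 0.19 (SE), and Reg4, Ang4 and Itln1 fell as given below. Without water replicate 1, 3 or 4, only 2 genes of the list were called higher.

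Feedback inhibitors of cytokine and NF-κB signalling rose, along with some of the factors they restrain. Socs3, which blocks signalling of the IL-6 family, read 0.87, 1.36, 0.91 and 0.70 on water and 6.43, 6.05 and 6.06 on DSS, a rise of 5.22 ± 0.19 (SE), and Socs1, which blocks interferon signalling, rose by 3.76. The factor downstream of IL-6, Stat3, rose by 1.97, Jak2 by 0.60, and Jak1 was not called at 0.14. Of 18 JAK, STAT and SOCS genes, 12 rose, 2 fell and 4 were not called. The NF-κB inhibitors Nfkbia, Nfkbie and Tnfaip3 rose by 2.10, 1.87 and 1.71, the subunits Nfkb2 and Rela by 1.35 and 0.93, and Relb was not called at 0.28. Of 15 genes in this list, 10 rose, 1 fell and 4 were not called, with a median of 1.02. Bacterial sensors rose moderately: Tlr2, the lipopeptide receptor, by 1.52, the endotoxin co-receptor Cd14 by 1.83, Nod2 by 1.88 and Tlr4 by 0.91. Tlr1 fell by 0.92 ± 0.15 (SE), and the inflammasome genes Nlrp3 (0.53), Casp1 (-0.67) and Nlrp6 (-0.91) were not called. Of 18 sensors, 10 rose, 1 fell and 7 were not called, against 22% of all genes that rose and 18.8% that fell.

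Macrophage genes rose, led by those of inflammatory cells. Of 24 tested, 20 rose, 2 fell and 2 were not called, with a median of 1.86 and list levels of 2.72, 1.82 and 1.83 on the DSS arrays against -0.27 to 0.29 on water. Fcgr4 and Fcgr1, activating receptors for IgG, rose by 4.38 and 3.50, the scavenger receptors Marco and Msr1 by 4.06 and 2.99, the monocyte receptor Ccr2 by 2.58 and arginase Arg1 by 3.34. The pan-macrophage genes moved less or not: Csf1r rose by 1.16, and Adgre1, which encodes F4/80, was not called at 0.75 ± 0.28 (SE). Mertk and Cx3cr1, markers of resident gut macrophages, fell by 0.96 ± 0.24 (SE) and 1.07 ± 0.33 (SE). MHC class II genes rose by small amounts, H2-Ab1 by 1.11 and Cd74 by 1.19, and of 16 genes of antigen presentation, 9 rose, 0 fell and 7 were not called. Of 17 T and NK cell genes, 4 rose, 0 fell and 13 were not called, a share of rises close to the 22% of all genes. Gzmb, Gzma, Icos and Klrd1 rose (2.67, 2.31, 1.75 and 0.80; Gzmb was above background on 3 water arrays and Gzma on 2), and the T cell receptor subunits Cd3d (0.52), Cd3e (0.26) and Cd3g (0.13) were not called.

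B and plasma cell genes depended on the mouse. The list stood at -0.24, 0.18 and -2.74 on the 3 DSS arrays relative to the water mean, so replicate 4 alone was far below the water range of -0.21 to 0.31. Of 16 tested, 1 rose, 4 fell and 11 were not called, a called share of 31.25% against 40.8% of all genes. Without DSS replicate 4, 7 were called higher. The 4 that fell were plasma cell genes: Tnfrsf17, the survival receptor BCMA, read 0.30, 0.82, 0.23 and 0.29 on water and -4.54, -2.91 and -4.26 on DSS and fell by 4.31 ± 0.38 (SE), Jchain, the joining chain of IgA, fell by 2.69 ± 0.26 (SE), Mzb1 by 2.60 ± 0.53 (SE) and Irf4 by 1.49 ± 0.32 (SE). All 3 DSS arrays were below the water arrays for Tnfrsf17. The B cell gene Ms4a1 (1.64, 1.72 and -3.13 on DSS against 0.90, 0.79, 0.67 and 0.24 on water) was low on DSS replicate 4 alone.

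Most genes that glucocorticoids commonly induce rose or were not called on DSS. Of 23 tested, 16 rose, 2 fell and 5 were not called, against 22% and 18.8% of all genes, with a median of 0.88. The metallothionein Mt2 rose by 4.32 ± 0.45 (SE) and Mt1 by 0.70 ± 0.23 (SE) with overlapping groups, the transcription factor Cebpd by 2.53, Angptl4, an inhibitor of lipoprotein lipase, by 4.90, Pdk4, which holds back glucose oxidation, by 2.13, the phosphatase Dusp1 by 1.88, and Lcn2 as above. These genes also answer to other signals, such as cytokines or fatty acids. Tsc22d3 and Fkbp5 were among the 5 genes of the list that were not called. Tsc22d3 read 1.59, 1.35, 1.72 and 1.07 on water and 1.46, 1.63 and 1.78 on DSS, and Fkbp5 read -0.31, -1.04, -0.36 and -0.10 and -0.87, -0.44 and -0.23. The groups overlapped in both. Sgk1, the kinase that raises sodium uptake, fell by 0.56 ± 0.18 (SE), and the sulfotransferase Sult1a1 fell by 3.50 ± 0.29 (SE). The palindromic receptor motif (G, any 1 base, ACA, any 3 bases, TGT, any 1 base, C), searched on both strands, was found in 3 of the 19 promoters of the list (Map3k6, Mt1 and Sgk1), in 0.4671% of tested genes and in 0.5365% of all promoter genes.

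Local steroid metabolism changed in opposite directions at its 2 hydroxysteroid dehydrogenases. Hsd11b1, which regenerates active corticosterone, read -0.14, 0.44, -0.49 and -0.38 on water and 1.02, 1.24 and 1.67 on DSS and rose by 1.45 ± 0.26 (SE). Hsd11b2, which inactivates it in colonocytes and so guards the mineralocorticoid receptor, read 0.25, 0.27, 0.54 and 0.92 and -2.59, -0.52 and -0.78 and fell by 1.79 ± 0.48 (SE). In neither gene did the groups overlap. Nr5a2, the regulator of intestinal steroid synthesis, fell by 1.40 ± 0.40 (SE), and the mineralocorticoid receptor Nr3c2 was not called at -0.05. Of 16 genes in the list, 3 rose, 8 fell and 5 were not called, against 22% of all genes that rose and 18.8% that fell. When water replicate 3 or 4 was left out, 4 fell.

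Genes of the prostaglandin pathway were called in both directions. Ptgs2, cyclooxygenase 2, read -3.84, -3.56, -3.66 and -4.62 on water and 0.64, -0.27 and 0.55 on DSS and rose by 4.22 ± 0.32 (SE) (adjusted p = 0.000202). Ptges, the inducible prostaglandin E synthase, read -2.22, -1.72, -1.93 and -2.17 and 0.85, 0.08 and 0.56 and rose by 2.51 ± 0.22 (SE). Hpgd, which degrades prostaglandin E, fell by 2.25 ± 0.36 (SE). The E receptors Ptger2 and Ptger3 rose by 2.26 and 0.80, and Ptger4, the main receptor on colon epithelium, was not called at -0.55. Of 18 genes, 7 rose, 2 fell and 9 were not called, a called share of 50% against 40.8% of all genes, and 4 fell without DSS replicate 3.

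The largest falls were secreted proteins and metabolic enzymes of healthy colon epithelium. Reg4, a lectin of secretory cells at the crypt base, read 5.51, 6.69, 5.12 and 5.52 on water and 0.26, -2.49 and -1.16 on DSS and fell by 6.84 ± 0.64 (SE) (adjusted p = 0.000372). The ribonuclease Ang4, an antimicrobial of goblet and Paneth cells, read 6.99, 7.88, 4.24 and 5.83 and -0.58, 1.20 and 1.11 and fell by 5.66 ± 0.86 (SE). Its water levels split, with replicates 1 and 2 above 3 and 4, and no DSS array reached them. Ang2 fell by 5.57 ± 0.89 (SE) with the same split, though angiogenin paralogs may share probe signal, and the lectin Itln1 fell by 5.37 ± 1.16 (SE) from water levels of 2.74, 3.31, -1.18 and -0.51. The drug-metabolising P450 Cyp2c40 read 4.58, 4.95, 5.29 and 5.40 and -1.71, 1.06 and -0.33 and fell by 5.38 ± 0.58 (SE), and Cyp2c29 and Cyp2f2 fell by 4.92 and 4.99. The urea cycle enzymes Cps1 and Otc fell by 5.09 ± 0.76 (SE) and 4.67 ± 1.06 (SE), the endoplasmic reticulum transporter Slc37a2 by 5.05 ± 0.66 (SE) and Klb, a co-receptor of endocrine fibroblast growth factors, by 5.03 ± 0.87 (SE). Cps1, Otc and Klb were above background on 2 of the 3 DSS arrays. Mptx1, mucosal pentraxin, fell by 4.67 ± 1.07 (SE) with DSS levels of 2.30, 6.88 and 2.05, of which replicate 3 was the closest to the water arrays. The remaining large falls were Nxpe2 (5.02), Olfr165 (4.61, above background on 2 DSS arrays) and the glucuronosyltransferase Ugt2b35 (4.40).

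Several genes fell out of detection on all 3 DSS arrays. Ttr, the thyroxine and retinol carrier transthyretin, was at least 14.8-fold lower on DSS (means -1.85 on water and -6.29 on DSS), Cyp2c39 at least 13-fold (means -2.04 and -6.98), the carboxylesterase Ces1b at least 8.7-fold (means -2.62 and -7.59) and the fucosyltransferase Fut9 at least 7.67-fold (means -2.79 and -6.94). Agr3, a disulfide isomerase of secretory cells, was at least 7.52-fold lower (means -2.83 and -6.92). The other bounds were 8.05-fold for Higd1c, 6.85-fold for Plut, 6.8-fold for Hmcn1, 5.15-fold for Wdr63 and 4.5-fold for Cdh26. Their water means were -2.73, -2.96, -2.97, -3.37 and -3.57, and their DSS means -7.90, -5.86, -7.02, -6.80 and -7.21.

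**Figure D2:**
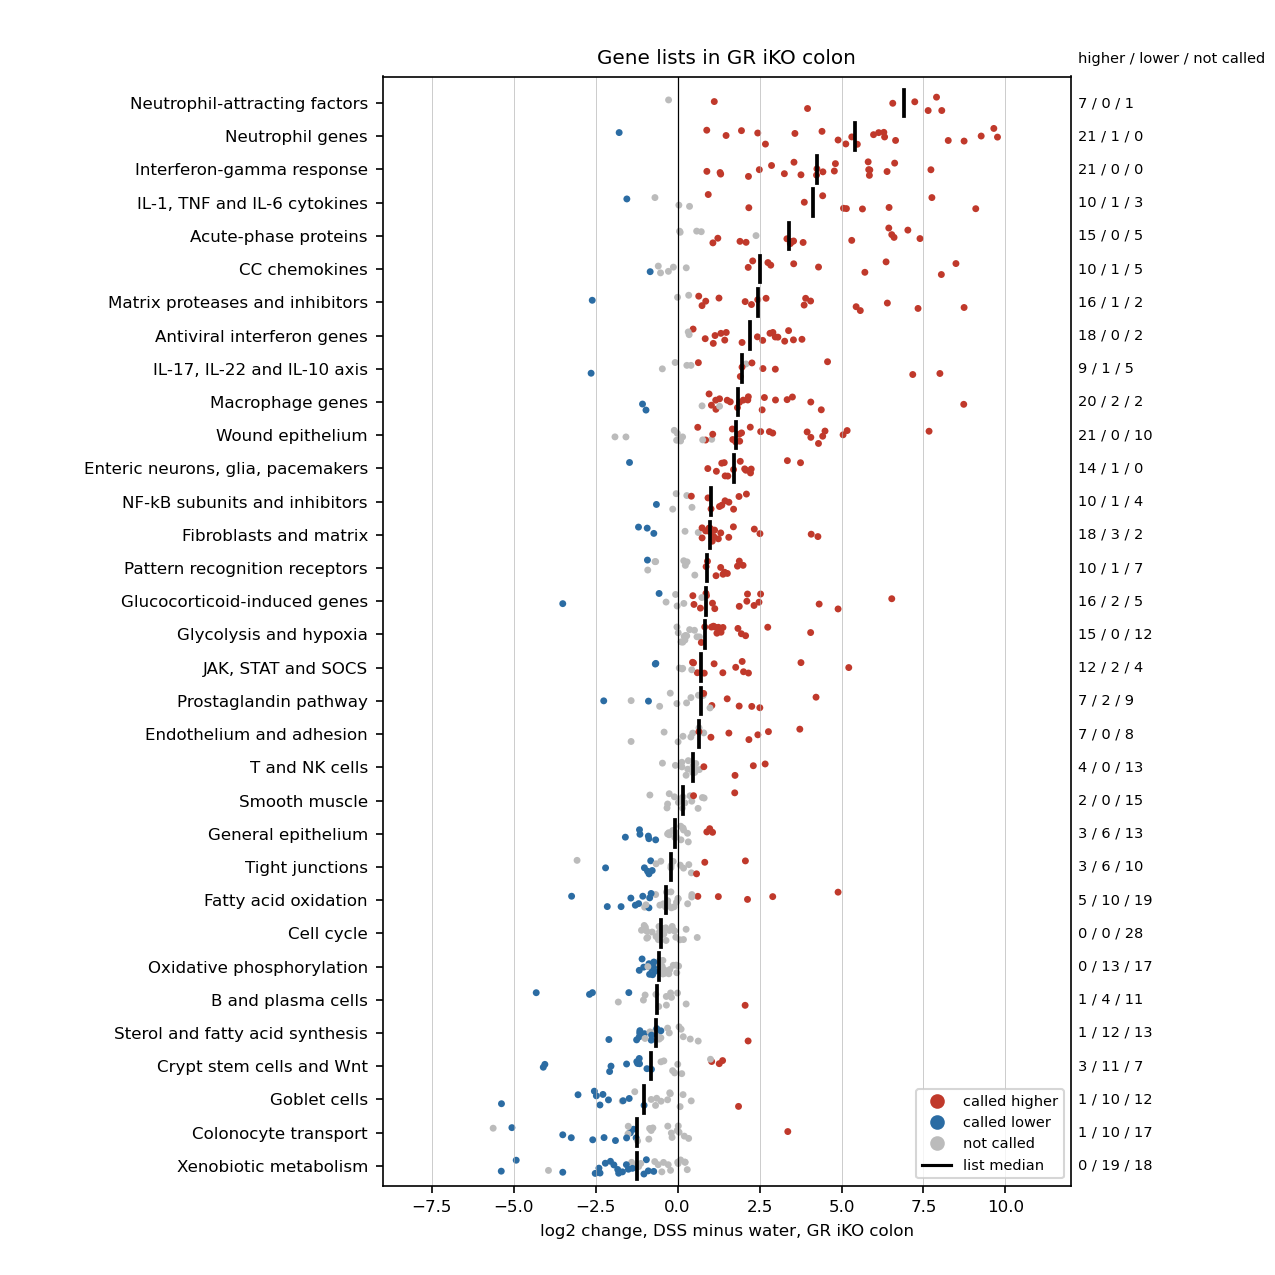
Change of each tested gene in the gene lists, ordered by list median. The x axis is the log2 change, DSS minus water, in GR iKO colon; points are genes (red called higher, blue called lower, grey not called), bars list medians, and the numbers at the right count genes called higher, lower and not called. Medians run from 6.90 for neutrophil-attracting factors to -1.24 for xenobiotic metabolism.

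Genes of epithelial identity moved in both directions, and the called colonocyte genes were mostly lower. Of 22 tested structural and identity genes, 3 rose, 6 fell and 13 were not called, a called share of 40.9% against 40.8% of all genes, with a median of -0.08. Epcam read 5.07, 5.12, 5.29 and 5.08 on water and 4.84, 5.37 and 4.96 on DSS, and Vil1, Cdh1 and Krt8 were not called (0.10, 0.33 and 0.10). The groups overlapped for Epcam. The transcription factors Cdx1 and Klf5 fell by 1.59 and 1.15, and Krt20, a keratin of surface cells, rose by 1.07. Of 28 tested colonocyte transport genes, 1 rose, 10 fell and 17 were not called, against 22% of all genes that rose and 18.8% that fell, with a median of -1.24. Slc26a3, the chloride-bicarbonate exchanger, read 3.59, 3.58, 4.44 and 4.35 and 2.29, 2.98 and 2.91 and fell by 1.26 ± 0.29 (SE). The chloride channel Cftr fell by 2.24, carbonic anhydrase Car2 by 1.89, the epithelial sodium channel subunit Scnn1a by 1.35, and the butyrate transporter Slc5a8 by 1.44. The water channel Aqp8 was not called at -1.22 ± 0.46 (SE), nor was Car1 at -0.88 ± 0.47 (SE).

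Several regulators of goblet cells fell, while the main secreted products named below were not called. Of 23 tested, 1 rose, 10 fell and 12 were not called, with a median of -1.02, against 22% of all genes that rose and 18.8% that fell. Atoh1, the factor that commits secretory cells, read -1.43, -1.11, -1.05 and -0.92 on water and -5.56, -2.15 and -3.28 on DSS and fell by 2.54 ± 0.70 (SE). Creb3l1, Creb3l4, Ern2 and Foxa3, which build and control the secretory pathway of goblet cells, fell by 2.28, 2.48, 2.37 and 1.48. The main mucin Muc2 read 7.42, 7.40, 7.12 and 6.54 and 5.40, 7.52 and 6.43 and was not called at -0.67 ± 0.47 (SE), with the groups overlapping. Clca1 (-0.80), Fcgbp (-1.31) and Tff3 (-0.30) were not called either. The transmembrane mucin Muc1 rose by 1.86 ± 0.63 (SE) with overlapping groups. DSS replicate 3 was nearest to water for both cell types, with list levels of -1.89, -0.39 and -1.40 for goblet genes and -1.62, -0.70 and -1.45 for colonocyte genes. Without it, 16 goblet and 17 colonocyte genes were called lower.

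Crypt stem cell and Wnt target genes were lower on average on all 3 DSS arrays. Of 21 tested, 3 rose, 11 fell and 7 were not called, against 22% of all genes that rose and 18.8% that fell. The median was -0.80, with list levels of -0.93, -0.78 and -0.67 on the 3 DSS arrays against -0.03 to 0.05 on water. Lgr5, the marker of crypt base stem cells, was above background on 1 of the 3 DSS arrays, read -1.0, -1.09, -0.73 and -0.85 on water and -6.06, -5.91 and -2.92 on DSS, and fell by 4.05 ± 0.71 (SE). The Wnt targets Axin2 and Ascl2 fell by 2.07 ± 0.18 (SE) and 2.03 ± 0.26 (SE), Sox9 by 1.16 and Rnf43 by 1.22, while Myc was not called at -0.15. Cd44 and Prom1 rose by 1.04 and 1.37. None of the 28 tested cell cycle genes was called, with 0 higher and 0 lower in limma and 3 genes at an unadjusted p under 0.05. Mki67 read 4.28, 3.44, 3.96 and 3.63 on water and 4.01, 1.78 and 3.94 on DSS, so DSS replicate 3 was low and replicates 1 and 4 lay within or near the water range, and the list as a whole stood at 0.18, -1.61 and 0.11.

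Tuft and enteroendocrine genes were called about as often as all genes, 46.7% and 36.4% of them against 40.8%. The tuft cell channel Trpm5 and regulator Rgs13 fell by 2.18 ± 0.58 (SE) and 3.39 ± 0.64 (SE), and Il25, the tuft cell cytokine, by 2.07, above background on 1 DSS array. Insl5, the hormone of colonic L cells, fell by 2.24 ± 0.67 (SE), while Pyy (-0.41) and Gcg (-0.55) of the same cells were not called. Sst, Cck and Nts rose (1.63, 1.02 and 3.09). Without DSS replicate 3, 8 tuft and 7 enteroendocrine genes were called lower, against 3 rose, 4 fell and 8 were not called of 15 tuft genes and 6 rose, 2 fell and 14 were not called of 22 enteroendocrine genes with it.

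Genes of regenerating epithelium and of matrix breakdown rose. Of 31 tested wound epithelium genes, 21 rose, 0 fell and 10 were not called, with a median of 1.77. Among all genes 22% rose and 18.8% fell. The epidermal growth factor receptor ligand Epgn rose by 5.17 ± 0.56 (SE), and Ereg was at least 12.1-fold higher (means -7.31 and -2.26). Areg and Hbegf, ligands of the same receptor, rose by 2.90 and 1.67, the protease inhibitor Slpi by 4.50, Ly6a, the Sca-1 antigen of the fetal-like repair state, by 2.53 ± 0.15 (SE), and the urokinase receptor Plaur by 4.07. Clu, a marker of revival stem cells, read 2.37, 2.29, 1.91 and 1.57 and 3.49, 3.77 and 1.96 and was not called, and the YAP targets Ccn2 and Ankrd1 were not called at -0.01 and 0.15. Of 19 matrix proteases and inhibitors, 16 rose, 1 fell and 2 were not called, with a median of 2.45. Mmp3 read -1.12, -1.54, -1.95 and -2.34 on water and 6.22, 5.42 and 5.15 on DSS, Mmp10 and Mmp13 rose by 6.40 ± 0.31 (SE) and 5.57 ± 0.54 (SE), and the inhibitor Timp1 by 5.45 ± 0.46 (SE). Timp4 fell by 2.60 ± 0.40 (SE). Tight junction genes were mixed: of 19, 3 rose, 6 fell and 10 were not called, a called share of 47.4% against 40.8% of all genes. Cldn4 rose by 2.07 ± 0.28 (SE), occludin, Ocln, fell by 0.87 ± 0.24 (SE) and Cldn15 by 2.20 ± 0.44 (SE), and the pore-forming Cldn2 was not called at -3.07 ± 1.08 (SE).

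Among metabolic genes, called respiratory chain, lipid synthesis and detoxification genes were mostly lower and called glycolysis genes higher. Of 30 tested respiratory chain and ATP synthase genes 0 rose, 13 fell and 17 were not called, by about 1 log2 unit at most, with a median of -0.56; with the slide pairs as a block 5 fell, and without water replicate 3 or 4, 7 did. For all genes the shares were 22% higher and 18.8% lower. Sdhb fell by 1.17 ± 0.20 (SE) and Cyc1 by 1.08 ± 0.27 (SE). Ppargc1a, the coactivator that drives mitochondrial biogenesis, fell by 3.23 ± 0.42 (SE) and the lipid sensor Ppara by 1.72 ± 0.45 (SE). Of 34 fatty acid oxidation genes, 5 rose, 10 fell and 19 were not called, a called share of 44.1% against 40.8% of all genes, and without DSS replicate 4, 16 fell. Of 26 genes of sterol and fatty acid synthesis, 1 rose, 12 fell and 13 were not called, among them Fasn (1.25 lower in log2 units), Acly (1.17) and Scd2 (2.10). Of 27 glycolysis and hypoxia genes, 15 rose, 0 fell and 12 were not called. Pfkfb3, the switch that drives glycolytic flux, read 0.27, 0.40, -0.10 and -0.38 and 4.29, 4.01 and 4.01 and rose by 4.06 ± 0.21 (SE), the lactate exporter Slc16a3 rose by 2.75 ± 0.48 (SE) and hexokinase Hk2 by 1.95 ± 0.17 (SE). The core enzymes Gapdh, Eno1 and Ldha were not called (0.20, 0.11 and 0.28). Of 37 tested detoxification genes 0 rose, 19 fell and 18 were not called, with a median of -1.24. Besides the P450 genes above these were sulfotransferases such as Sult1a1 and Sult1c2 (-2.37), glutathione transferases such as Gstm3 (-1.80) and the efflux pump Abcb1a (-2.20).

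Most stromal and nerve genes rose, and most smooth muscle genes were not called. Of 23 fibroblast and matrix genes, 18 rose, 3 fell and 2 were not called, with a median of 1.00. Across all genes 22% rose and 18.8% fell. Grem1, an inhibitor of bone morphogenetic proteins made by crypt fibroblasts, rose by 4.08 ± 0.31 (SE), Spp1, osteopontin, by 4.28 ± 0.46 (SE), the collagen gene Col1a1 by 1.00, and Postn, periostin, fell by 1.19 ± 0.38 (SE). Of 15 genes of enteric nerves, glia and pacemaker cells, 14 rose, 1 fell and 0 were not called, with a median of 1.71. The glial filament gene Gfap read -3.98, -4.75, -5.10 and -4.64 on water and -0.82, -0.76 and -1.03 on DSS and rose by 3.75 ± 0.26 (SE), the neuropeptides Tac1 and Vip rose by 3.35 and 2.05, and Ano1, the chloride channel of pacemaker cells, which epithelial cells also express, fell by 1.47 ± 0.13 (SE). Of 17 smooth muscle genes, 2 rose, 0 fell and 15 were not called, a called share of 11.8% against 40.8% of all genes. Acta2 read 7.00, 6.75, 6.91 and 6.54 on water and 6.31, 7.40 and 7.18 on DSS, and Myh11 read 5.22, 4.89, 4.79 and 4.53 and 4.09, 5.87 and 5.05. DSS replicate 1 was the lowest DSS array for both, and without it 5 smooth muscle genes were called higher. Of 15 endothelial genes, 7 rose, 0 fell and 8 were not called: the adhesion molecules Selp, Icam1 and Vcam1 rose by 3.73, 2.77 and 2.45, and the pan-endothelial Pecam1 (0.46) and Kdr (0.17) were not called. Fat cell genes were scattered between mice, at -1.63, 0.83 and -1.86 on DSS and -0.57 to 0.36 on water, and none of 9 was called in limma, with 4 at an unadjusted p under 0.05.

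**Figure D3:**
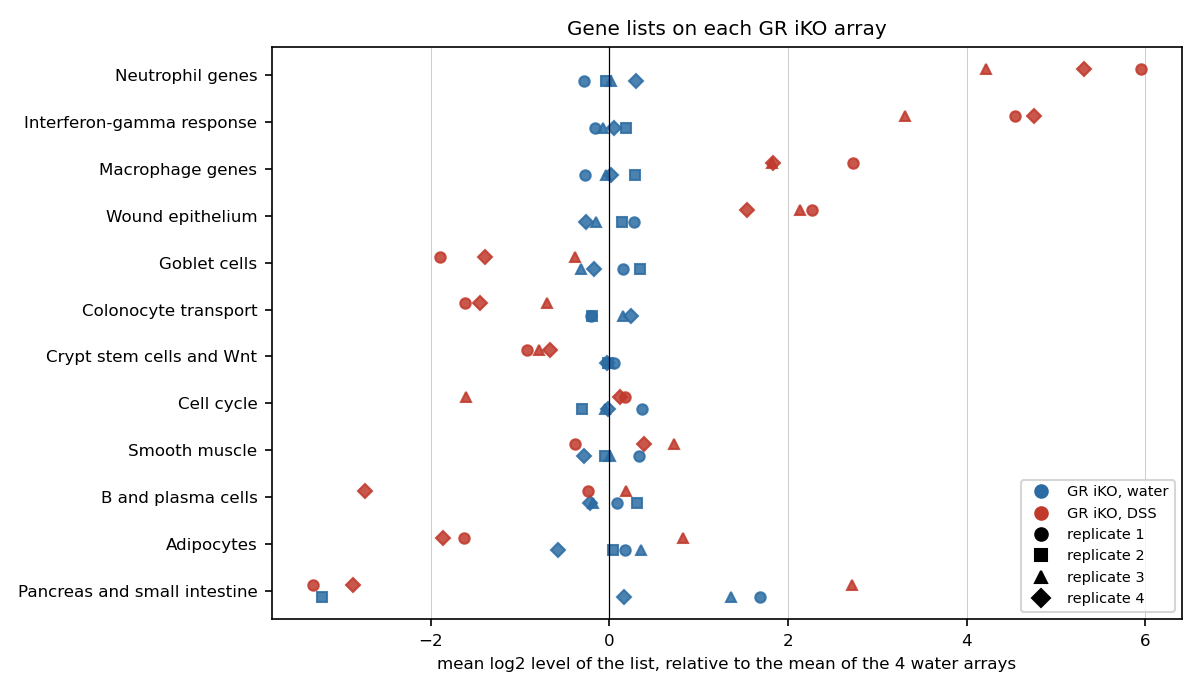
Mean level of gene lists on each GR iKO array, in log2 units relative to the mean of the 4 water arrays (x axis). Blue points are water arrays, red points DSS arrays, and shapes give the replicate; the neutrophil list lies between 4.22 and 5.95 on the DSS arrays, while the pancreas and small intestine list spans -3.31 to 2.72 on DSS and -3.22 to 1.69 on water.

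Genes of the Hoxb cluster moved in both directions. Hoxb2, Hoxb3, Hoxb4, Hoxb5, Hoxb6 and Hoxb7 rose by 1.72, 1.56, 1.66, 1.44, 1.50 and 1.14, while Hoxb9 and the most posterior member Hoxb13, an epithelial gene of the distal colon, fell by 1.23 ± 0.24 (SE) and 2.83 ± 0.62 (SE). Of 22 Hox and caudal genes, 9 rose, 3 fell and 10 were not called, a called share of 54.5% against 40.8% of all genes. Without DSS replicate 4, 6 fell. Of 18 clock genes, 4 rose, 1 fell and 13 were not called, a called share of 27.8%, below the 40.8% of all genes. Among the called genes, the repressor Nfil3 rose by 2.71 ± 0.42 (SE) and Arntl, the core activator, fell by 1.72 ± 0.15 (SE).

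The same contrast in Flox colon called 8498 of the 15082 genes (56.3%). A direct test of the difference, the interaction of genotype and DSS over all 14 arrays, called 41 genes (0.272%) and 74 of 28257 probes (0.262%). This count was unstable. Without Flox DSS replicate 4 it was 2371 probes, without GR iKO DSS replicate 3 2222 and without GR iKO DSS replicate 4 441, and it was 0 with the slide as a block, with separate weights for DSS and water arrays and in 6 of the 14 leave-one-out fits, with 4306 to 4975 probes at an unadjusted p under 0.05 in limma where the count was 0. Flox DSS replicate 4 had the lowest signal of the 14 arrays, with a 75th percentile of 262 and 62.6% of probes well above background. Flox DSS replicates 1 and 2 read 430 and 675, and the Flox water arrays 707 to 1003. The part of this in the count was not tested. The values that follow are from the 14-array fit, and each named difference kept its sign in every leave-one-out fit.

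Genes with a larger DSS response in GR iKO included cytokine and prostaglandin genes. Il11, an IL-6 family cytokine of stromal and damaged epithelial cells, read -3.78, -4.10, -3.91 and -3.81 on GR iKO water arrays and 1.83, 2.14 and 1.24 on DSS. Its change of 5.64 ± 0.22 (SE) compared with 3.20 ± 0.18 (SE) in Flox, a difference of 2.43 ± 0.29 (SE) (adjusted p = 0.0282). Inhba, which forms activin A, changed by 3.63 ± 0.34 (SE) in GR iKO and 0.90 ± 0.18 (SE) in Flox, a difference of 2.74 ± 0.41 (SE) (adjusted p = 0.0354). Il1rn read 1.47, 1.71, 1.47 and 1.53 on water and 4.34, 3.06 and 3.75 on DSS and rose in GR iKO, while in Flox it changed by -0.05 ± 0.16 (SE), a difference of 2.22 ± 0.34 (SE) (adjusted p = 0.0354). Ptges changed by 0.52 ± 0.18 (SE) in Flox, a difference of 1.99 ± 0.29 (SE) (adjusted p = 0.0354). Cd40, the receptor through which T cells activate B cells and macrophages, rose by 2.51 ± 0.19 (SE) in GR iKO, a difference of 1.62 ± 0.26 (SE) (adjusted p = 0.0382). Nfkbid, a nuclear inhibitor of NF-κB, rose in GR iKO by 1.03 ± 0.16 (SE), a difference of 1.32 ± 0.22 (SE) (adjusted p = 0.044). Among list members named above, the difference was also called for Ltf (4.24 ± 0.77 (SE)), Il1a (3.67 ± 0.65 (SE)), Mmp10 (2.32 ± 0.42 (SE)), Mmp13 (3.49 ± 0.63 (SE)) and Ptgs2 (2.40 ± 0.41 (SE)), all larger in GR iKO. For Ltf and Il1a these differences rest on water levels that were not well above background.

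Some of the other differences involved falls in Flox. Unc5cl, an epithelial death domain protein, changed by 0.05 ± 0.12 (SE) in GR iKO and -2.0 ± 0.23 (SE) in Flox (difference 2.05 ± 0.25 (SE), adjusted p = 0.0282). Foxa1, an epithelial pioneer factor, changed by -0.36 ± 0.18 (SE) and -1.72 ± 0.13 (SE) (difference 1.36 ± 0.22 (SE), adjusted p = 0.0422), and heparanase, Hpse, by 0.14 ± 0.14 (SE) and -0.94 ± 0.11 (SE) (difference 1.08 ± 0.17 (SE), adjusted p = 0.0365). Rab11fip1, of the recycling endosome, had a difference of 1.14 ± 0.16 (SE).

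For other genes the response was smaller in GR iKO. Ppp1r14a, which inhibits myosin phosphatase in smooth muscle, changed by 0.49 ± 0.14 (SE) in GR iKO and 1.58 ± 0.13 (SE) in Flox (difference -1.09 ± 0.18 (SE), adjusted p = 0.0438). The muscle genes Nexn and Speg had differences of -1.05 ± 0.15 (SE) and -1.47 ± 0.22 (SE), and the caveolar gene Cavin2 -1.12 ± 0.20 (SE). With the slide pairs as a block the GR iKO change of Ppp1r14a, Nexn, Speg and Cavin2 was no longer called (adjusted p = 0.118, 0.053, 0.132 and 0.0731). The other genes with the smallest p were Tfr2 (-1.45), Nat14 (-1.0), Epha5 (-1.17), Smarca1 (-1.04), Dmtn (-1.05) and Taf9b (-1.13). The smooth muscle list had a median change of 0.16 in GR iKO and 1.41 in Flox, and its change was larger in GR iKO in 0 of 17 genes, against 50.2% of all genes. This was not particular to muscle. The change was larger in GR iKO in 0 of 9 fat cell, 1 of 15 nerve and 2 of 23 fibroblast genes. Tissue content also differed: the pancreas and small intestine list had medians of -1.47 in GR iKO and 4.63 in Flox. Its part in these differences was not tested. For the endothelial list the medians were 0.65 and 0.72, with 8 of 15 changes larger in GR iKO. For neutrophil genes the medians were 5.40 and 3.12, and 21 of 22 changes were larger in GR iKO. The probe filter used the GR iKO arrays alone, and only 8 of these 22 genes passed it on all 7 arrays. Genes bright on the GR iKO DSS arrays were thereby favoured, so this neutrophil comparison is tilted towards larger changes in GR iKO. For B and plasma cell genes the medians were -0.62 and -3.20. Of the members of these lists, only Ltf and Ppp1r14a had a called difference.

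**Figure D4:**
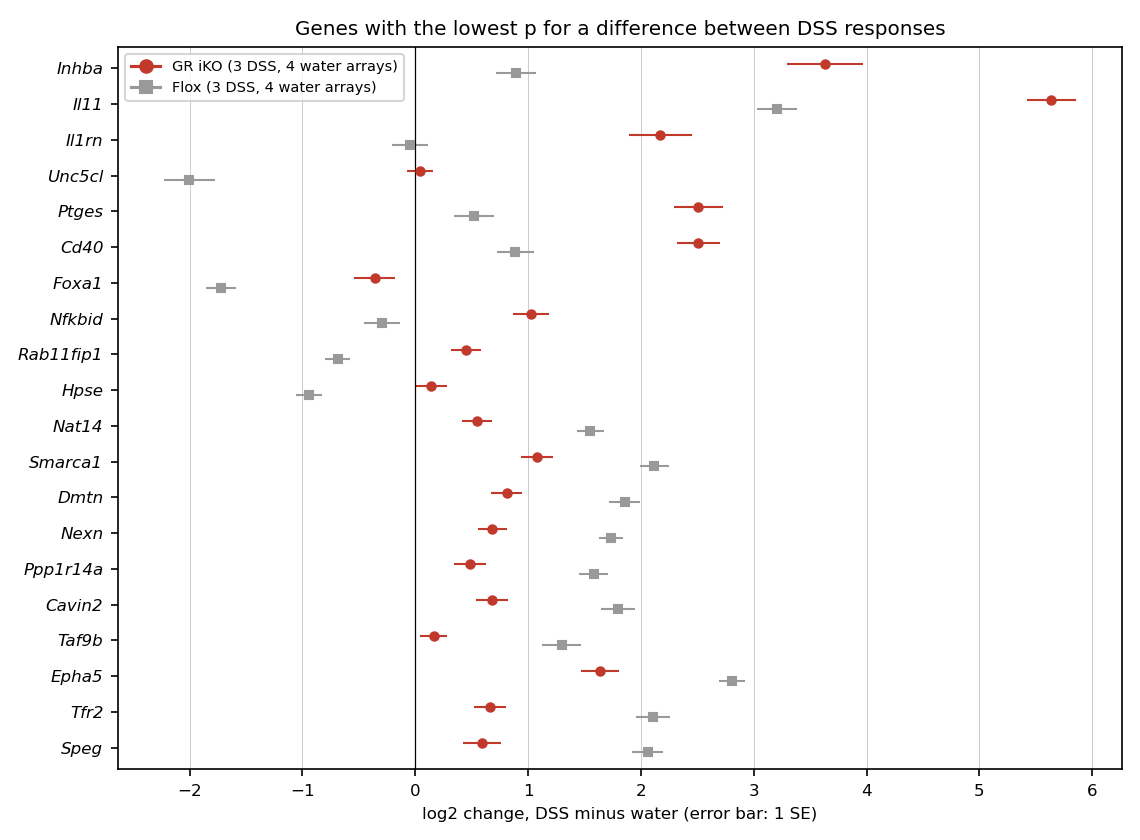
Log2 change, DSS minus water, of the 10 genes with the lowest interaction p in each direction (error bars, 1 SE). Red circles are GR iKO and grey squares Flox, each from 3 DSS and 4 water arrays; the upper 10 genes have the higher value in GR iKO and the lower 10 the higher value in Flox.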

How the data were processed

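Total RNA from colon, 500 ng per array, was hybridised to 1-colour Agilent mouse arrays. The authors deposited the intensity files of Agilent Feature Extraction 12.0.0.7, whose processed signal is background-subtracted, and a value table that per the labels came from Partek 6.6, on the log2 scale with equal quartiles in every array (normalization method not given in the sources used here). Here control spots and outlier flags were removed, spots of a probe averaged, processed intensities taken to log2 and each array's 75th percentile subtracted. Probes were tested with limma 3.58.1 in R 4.3.3 (lmFit and eBayes, two-sided, Benjamini-Hochberg) over the 3 DSS and 4 water arrays of GR iKO, with no covariate. The same fit on the Flox arrays and a genotype by DSS interaction over all 14 arrays served the comparison. Single values were compared by exact permutation tests. A gene was represented by its probe with the highest mean signal; the probes of 20 genes were called in both directions. Of 29245 probes with a RefSeq accession, 28223 matched a symbol of the reference table, and other probes kept the name in the scanner files. In 80 tested probes a value was missing on at least 1 array after outlier removal and was not imputed. A fold is given as "at least" where a probe was not well above background on any array of 1 group. It sets the mean of the bright group against the dim group's mean of, per array, the higher of the probe's own value and the lowest signal well above background. The number of arrays limits the precision.

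Named were the 15 largest rises and falls among genes measured in both groups without overlap, the 10 highest bounds in each direction, up to 6 members of a gene list plus those that define it, the 10 lowest interaction p in each direction, and Nr3c1. A few further members were named after their values were seen. Members and the 47 lists were chosen with earlier results of these data known, and some lists share genes. Of 999 genes written into the lists 948 were on the array, and the others were not analysed here. Alternatives were the deposited log2 table, normexp background correction (on median spot signals, offset 50), median centring, spike-in scaling, no filter or a filter on all 7 arrays, a fit over 14 arrays, separate weights for DSS and water arrays, a trended prior, a replicate block and leaving out each array. The fits were tested on simulated data. A few genes are not reported here.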

Additional observations from a re-analysis of the deposited data

Results flagged for a closer look

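Within the 4 water arrays of GR iKO, 1 array stood apart from the other 3 for 25 of 357 sets of values examined (310 named genes and 47 list means), or 7%, while chance alone sets 1 apart in about 1 in 20. Water replicate 1 was high for C3 (5.08 against 4.34 to 4.42 on the others), Chil1 (-4.66 against -5.11 to -5.05), Ngp (-4.13 against -8.33 to -7.98) and Hoxb7 (-1.89 against -2.17 to -2.12), and low for Clec4e (-8.00 against -6.13 to -5.94) and Fpr2 (-7.42 against -5.99 to -5.75). Water replicate 2 was high for Il17a (-7.34 against -8.10 to -7.99), Il19 (-6.76 against -8.24 to -8.09), Irf4 (-2.12 against -2.86 to -2.79), Nlrp3 (-4.30 against -4.95 to -4.86) and Tnfrsf17 (0.82 against 0.23 to 0.30), and low for F10 (-5.26 against -4.88 to -4.83). Water replicate 3 was high for Gapdh (5.94 against 5.81 to 5.83) and low for Trem1 (-7.33 against -6.13 to -5.91). Water replicate 4 was high for Ccl4 (-3.41 against -4.26 to -4.24) and Ascl2 (-1.93 against -2.72 to -2.68), and low for Hk2 (3.98 against 4.44 to 4.51) and Sult1c2 (3.32 against 3.64 to 3.65). The Clec4e, Il17a, Il19, Fpr2 and Trem1 values lie at levels that were not well above background on most or all water arrays. Among list means, replicate 2 was high for neutrophil-attracting factors (0.59 above the water mean), for JAK, STAT and SOCS genes (0.12) and for pattern recognition receptors (0.12), replicate 1 was high for secreted antimicrobial proteins (1.00) and low for tight junction genes (-0.11) and glucocorticoid-induced genes (-0.08), and replicate 4 was low for the prostaglandin pathway (-0.10).

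The DSS response differed between GR iKO and Flox colon, by the interaction test in limma, for 25 of the named genes. Over all 15082 genes the same test called 41 (0.272%). Of the 25, all except Ltf, Il1a, Mmp10, Mmp13 and Ptgs2 were picked for a low interaction p. The count of 25 was therefore set largely by selection and gives no rate among the named genes. The difference, GR iKO minus Flox on the log2 scale, was positive for Ltf (4.24), Il1a (3.67), Mmp13 (3.49), Inhba (2.74), Il11 (2.43), Ptgs2 (2.40), Mmp10 (2.32), Il1rn (2.22), Unc5cl (2.05), Ptges (1.99), Cd40 (1.62), Foxa1 (1.36), Nfkbid (1.32), Rab11fip1 (1.14) and Hpse (1.08). It was negative for Speg (-1.47), Tfr2 (-1.45), Epha5 (-1.17), Taf9b (-1.13), Cavin2 (-1.12), Ppp1r14a (-1.09), Nexn (-1.05), Dmtn (-1.05), Smarca1 (-1.04) and Nat14 (-1.0). The adjusted p-values in limma lay between 0.0282 and 0.0484, close to the threshold, and none of these differences was called with the slide as a block.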

How the results depend on the processing

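The count of probes called in GR iKO was 6981 with the replicate block, which pairs the arrays of a slide (3044 of them lower), and lay between 7935 and 11817 when 1 array was left out, with 3603 to 5832 lower. Deviations of same-numbered arrays correlated at -0.03, 0.22 and 0.16, and those of differently numbered arrays at -0.16 to 0.20. These few values cannot decide whether arrays of a slide share an effect. The reported fit used no block, and the block is given as an alternative. Scaled to spike-in transcripts, 16631 probes were called, 1137 higher and 15494 lower, around a median of -0.99. The median over all probes was 0.06 with normexp and 0.13 without the filter. In the other settings the counts stayed within 1.5 times the reported ones. The interaction count was 232 with the deposited value table, 0 with separate weights, 0 with the slide block and 0 to 2371 when 1 array was left out. One further Nr3c1 probe gave 55.7% of the Flox signal on water (exact permutation test, 4 against 4 arrays, p = 0.143), and another gave 75.7% on DSS with overlapping groups (3 against 3 arrays, p = 0.5).

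Of 310 named genes, 25 lost their call with the replicate block and 30 in at least 1 fit without 1 array: Abcb1a, Atoh1, Ccl28, Cd177, Cd44, Cx3cr1, Gzma, Hsd11b2, Icos, Il25, Insl5, Jak2, Klrd1, Lyz1, Lyz2, Mt1, Muc1, Nat14, Nr5a2, Ocln, Postn, Ppara, Ppp1r14a, Prtn3, Ptger3, Rab11fip1, Reg3a, Sgk1, Sox9 and Speg. Separate weights for DSS and water arrays ended 19 calls and the fit without a filter 11. Without GR iKO DSS replicate 4, Ms4a1, which was not called, turned to 1.03 (lowest value -1.40, without replicate 3), and the median of B and plasma cell genes relative to all genes to 0.72. Without GR iKO DSS replicate 3 that of cell cycle genes turned to 0.09. The cause was not tested. With normexp, list medians relative to all genes moved to 3.47 for neutrophil-attracting factors, 2.01 for IL-1 and IL-6 cytokines, 0.68 for the IL-17, IL-22 and IL-10 axis, 2.25 for acute phase proteins, 1.38 for matrix proteases and -0.21 for tuft cell genes. This setting adds an offset and also starts from median spot signals. The part of each in these shifts was not tested. Genes near background have only bounds, and with 3 DSS arrays, small changes were not resolved.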
